A study of Mus musculus with 6 samples.

Results

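The 10 genes described here belong to 2 antiviral gene families of the mouse. They were Ifit1, Ifit2, Ifit3 and Ifit3b of the IFIT family and Oas1a, Oas1g, Oas2, Oas3, Oasl1 and Oasl2 of the OAS family. They were taken by gene name from a table of 54532 genes, with the fold changes between the groups of these data already known, so their values in that comparison are given as a description without a test. RNA-seq was performed on cultured mouse cells labelled as dendritic cells, the immune cells that show antigen to T cells, while the text of the study speaks of macrophages. There were 3 control libraries and 3 libraries from cells treated with DB2313, which the study describes as an inhibitor of Spi1 (PU.1), a transcription factor of macrophages and dendritic cells. The labels gave no strain, age, dose or time, and did not say whether the libraries of a group came from separate cultures, so the spread between them may be technical. The columns of the control libraries were named BMDC and those of the treated libraries SPI1, and every direction below rests on reading the latter as the DB2313 libraries.

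IFIT and OAS genes belong to the best known interferon-stimulated genes. Interferon binds its receptor, the JAK kinases activate STAT factors, and these bind with IRF9 to a DNA element, the ISRE, in the promoters of their targets. IFIT proteins bind viral RNA and block its translation. OAS enzymes sense double-stranded RNA and make 2′-5′ oligoadenylates, a signal that leads to the decay of RNA in the cell.

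The libraries held 16146743 to 19764677 counts. In the whole table, 14174 genes had enough counts to be tested, all 10 IFIT and OAS genes among them. Of the dendritic cell markers, 14 of 17 exceeded 10 CPM (counts scaled to a common library size), with Zbtb46 at 66.8 to 91.3 CPM and H2-Ab1 at 1207 to 1325 CPM. All 14 macrophage markers and all 12 neutrophil markers also exceeded 10 CPM. So did 8 of 10 mast cell and basophil markers, 9 of 12 T cell markers, 1 of 7 B cell markers and 0 of 7 fibroblast markers. Of 12 markers of plasmacytoid dendritic cells, known as strong makers of interferon, 5 exceeded 10 CPM in the mean of the libraries. They were Il3ra (72.1 to 100 CPM), Spib (61.0 to 81.3), Tcf4 (22.0 to 31.9), Runx2 (15.6 to 23.7) and Pacsin1 (8.36 to 12.5). Of the others, Siglech had at most 8 counts in a library and Klk1 had none. In bulk samples, fewer cells of a type and less RNA per cell cannot be told apart. Within a group, the libraries furthest apart were DB2313 replicates 1 and 3, at a chi-square per degree of freedom of 19.4 against 5.02 to 5.55 between control libraries.

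The 4 IFIT genes lay in 1 cluster on the plus strand of chromosome 19 and the OAS genes on chromosome 5 (GRCm38). Ifit2 was at 34550694 to 34576419, Ifit3 at 34583531 to 34588731, Ifit3b at 34607970 to 34613401 and Ifit1 at 34640871 to 34650009. On chromosome 5, Oas2 (120730333 to 120749853), Oas3 (120753098 to 120777661), Oas1g (120876142 to 120887613) and Oas1a (120896256 to 120907521) were on the minus strand. Oasl2 (114896936 to 114912234) and Oasl1 (114923240 to 114937915) lay apart from them on the plus strand. The map of the clusters also shows the other genes of the families that lie between them.

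**Figure D1:**
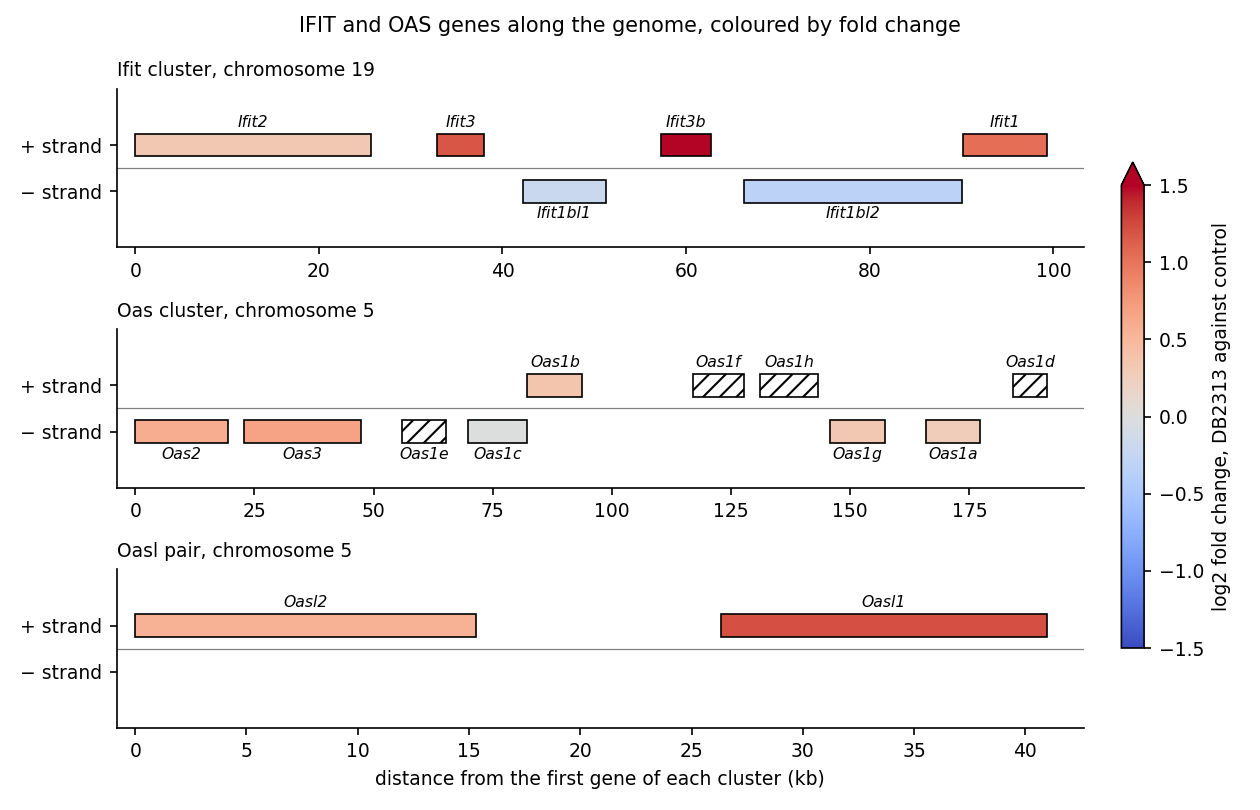
Position and strand of the IFIT and OAS genes, with distance in kb from the first gene of each cluster on the x axis and the log2 fold change of DB2313 against control as colour; hatched genes did not pass the filter on low counts. Ifit3b, at 2.49, exceeds the colour scale, and Ifit1bl1 and Ifit1bl2 on the minus strand of the Ifit cluster are at -0.21 and -0.33.

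The sequences before the start of these genes are shown because the ISRE is the element through which both families are known to respond to interferon. Promoter entries of RefSeq (GRCm38.p6), from 250 bases before to 50 bases after the start, were matched for 9 of the 10 genes. The ISRE core was searched on both strands as GAAA, any 2 bases and GAAA again. It was found in 6 of the 9 genes, Ifit1, Ifit3, Ifit3b, Oas1a, Oas1g and Oas3, and in 3.443% of all 32851 promoter entries. The matches with 20 bases on either side, cut at the start of the gene, read as follows on the strand of the gene, with the matches in capitals (TTTC, 2 bases and TTTC is the same core read on the other strand).
Ifit1 (chr19:34640765-34640833, plus strand): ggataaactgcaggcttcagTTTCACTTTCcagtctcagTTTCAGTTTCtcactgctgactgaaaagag
Ifit3 (chr19:34583353-34583436, plus strand): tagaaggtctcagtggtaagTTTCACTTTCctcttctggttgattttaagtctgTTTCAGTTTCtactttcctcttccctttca
Ifit3b (chr19:34607749-34607832, plus strand): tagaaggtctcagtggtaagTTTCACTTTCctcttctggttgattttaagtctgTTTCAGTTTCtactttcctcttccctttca
Oas1a (chr5:120907526-120907565, minus strand): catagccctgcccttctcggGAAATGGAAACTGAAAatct
Oas1g (chr5:120887614-120887651, minus strand): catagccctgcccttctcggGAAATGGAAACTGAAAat
Oas3 (chr5:120777705-120777754, minus strand): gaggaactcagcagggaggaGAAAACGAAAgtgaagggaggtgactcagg

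The 3 IFIT promoters held the same 2 cores in the same order. The window of Ifit3 and that of Ifit3b were identical over all 84 bases, so they do not count as separate cases. Oas1a and Oas1g each held 2 overlapping matches directly before the start. In Ifit2, Oasl1 and Oasl2 these letters were not found in the windows searched. A composite element of an ETS factor such as PU.1 with an IRF factor, searched as GGAA, any 2 bases and GAAA, was found in 0 of the 9 genes and in 2.715% of all entries, and a PU.1 box, searched as GAGGAAGT, in 0 of the 9 and in 3.202%. A match of letters is not a site of binding, and neither its presence nor its absence was tested against the expression values.

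Some of these genes are near-identical copies, which bears on how their reads were counted. Over the coding sequence, Ifit3 and Ifit3b were identical at 99.09% of 1209 bases, and Oas1a and Oas1g at 96.73% of 1101 bases. Of the stretches of 100 bases in the transcript of Ifit3, 31.7% were also found in Ifit3b, and 27.4% of those of Ifit3b in Ifit3. For Oas1a and Oas1g the shares were 40.9% and 31.2%. Ifit1 shared 3.285% of its stretches with Ifit1bl2. Ifit2, Oas2, Oas3, Oasl1 and Oasl2 shared none with another transcript. The values of Ifit3, Ifit3b, Oas1a and Oas1g given one by one are therefore uncertain.

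To compare genes of different length, levels were first expressed as CPM per kb of the deposited gene length. In control, Oas1a was the highest at 35.7 ± 1.79, followed by Oasl2 at 14.9 ± 0.62 and Oas3 at 12.6 ± 0.90 CPM per kb (SD, n = 3). Between these neighbours the control libraries did not overlap. Oas1g (7.14 ± 1.23), Ifit2 (6.89 ± 0.48), Ifit3 (6.57 ± 0.06), Oasl1 (6.44 ± 0.19), Ifit1 (5.98 ± 0.43) and Oas2 (4.79 ± 0.72 CPM per kb) followed, and each overlapped the next in order. Ifit3b was the lowest, at 0.54 ± 0.23 CPM per kb. With DB2313, the order of the first 3 was the same, while Oasl1 (15.0 ± 1.66) and Ifit3 (14.9 ± 2.57) took the fourth and the fifth place, and Oas1g and Ifit2 the seventh and the eighth. The level depends on the length used. With the longest transcript in GENCODE M21 in place of the deposited length, Oasl2 in control was at 30.3 and Oas3 at 18.9 CPM per kb.

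**Figure D2:**
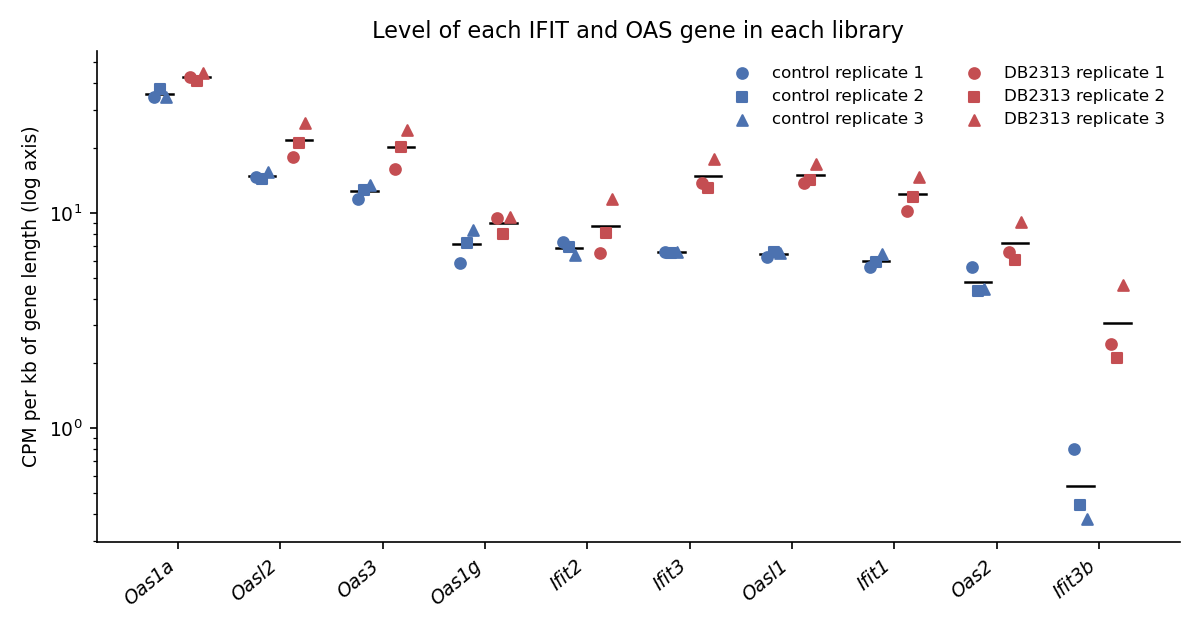
CPM per kb of gene length (log axis) of each IFIT and OAS gene in the 3 control and 3 DB2313 libraries, in the order of the control mean, with points for libraries and lines for group means. DB2313 replicate 3 is the highest DB2313 library for all 10 genes, and the groups overlap for Ifit2 and Oas1g.

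With DB2313, the sum of the 4 IFIT genes rose from 54.6 to 56.9 CPM in the control libraries to 81.7, 89.97 and 124.6 CPM in DB2313 replicates 1 to 3, which was 1.78-fold in the mean. The sum of the 6 OAS genes was 296 to 316 CPM in control, against 397, 438 and 529 CPM after DB2313, or 1.49-fold. All 10 genes had a positive log2 fold change, and 8 passed the threshold of edgeR's test over all genes, where 4.66% of all genes tested were called higher. For the same 8 genes all DB2313 libraries lay above all control libraries, as they did for 12.9% of all genes. The marker lists held calls as well, to be read beside the 4.66% of all genes tested that were higher and the 5.94% that were lower. Of 14 macrophage markers, 8 were lower and 1 higher with DB2313. Their sum was 10389 to 11782 CPM in control and 9245 to 10128 CPM with DB2313. Most of it was Lyz2, at 8285 to 9555 CPM in control and 7561 to 8253 CPM with DB2313, which was not called. Of the dendritic cell markers 3 were lower and 2 higher, with sums of 13665 to 13917 and 11743 to 13543 CPM, and of 12 neutrophil markers 3 were higher and 1 lower, with sums of 4883 to 5478 and 4918 to 6481 CPM. What part the cells of these lists had in the values of the IFIT and OAS genes was not tested. The median log2 fold change was 1.10 for the IFIT genes and 0.57 for the OAS genes, against 8.2e-04 for all genes tested. Because the genes were chosen with these values known, the counts are a description.

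Ifit1 binds RNA whose cap lacks the methyl marks of the host. The 3 control libraries held 242, 250 and 273 of its counts, and the 3 DB2313 libraries 448, 627 and 647. These were 14.9, 15.7 and 17.1 CPM in control, against 27.2, 31.4 and 38.9 CPM after DB2313, and its log2 fold change was 1.03 ± 0.13 (SE). The lowest DB2313 library was 1.59-fold above the highest control library.

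Ifit3 is a partner of the other IFIT proteins in complexes. It was at 11.5, 11.4 and 11.5 CPM in control, the closest agreement between control libraries of all 10 genes, and at 24.0, 22.7 and 31.1 CPM with DB2313. The log2 fold change was 1.18 ± 0.13 (SE), and the groups lay 1.97-fold apart at their nearest libraries. Ifit3b, its copy, had 26, 14 and 12 counts in control and 81, 84 and 154 with DB2313, or 1.60, 0.878 and 0.753 CPM against 4.92, 4.21 and 9.25 CPM. Its log2 fold change was the largest and the least precise, at 2.49 ± 0.37 (SE), with 2.07 when DB2313 replicate 3 was left out and 2.89 when control replicate 1 was. With the counts of both copies summed to 1 gene, the log2 fold change was 1.35.

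The share of the copies was examined within each library. Per 100 Ifit3 counts there were 13.9, 7.73 and 6.52 Ifit3b counts in the control libraries and 20.5, 18.5 and 29.8 in the DB2313 libraries. All DB2313 values lay above all control values. In contrast, Oas1g had 20.998, 23.8 and 29.7 counts per 100 Oas1a counts in control and 27.5, 24.1 and 26.5 with DB2313, and the groups overlapped. How reads that match both copies were handled was not given in the sources used here, and its part in these ratios was not tested.

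**Figure D3:**
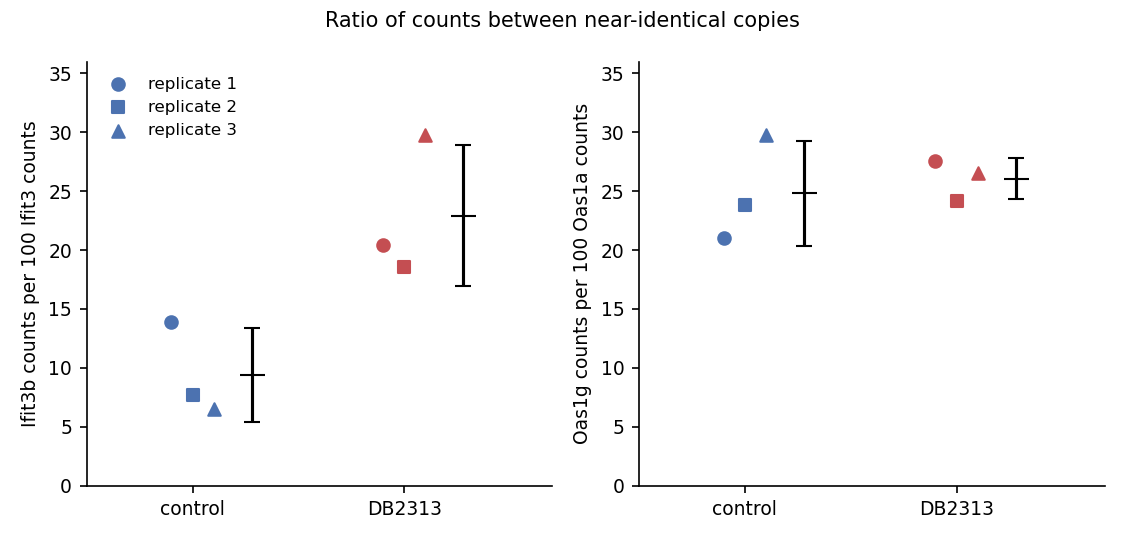
Counts of Ifit3b per 100 counts of Ifit3 (left) and of Oas1g per 100 counts of Oas1a (right) in each library, with points for libraries and black bars for the group mean ± SD (n = 3). The mean is 9.39 ± 3.96 in control and 22.9 ± 6.02 with DB2313 on the left, and 24.8 ± 4.46 and 26.1 ± 1.74 on the right.

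Ifit2, which binds RNA rich in A and U, differed from the other IFIT genes in that its groups overlapped. It was at 28.9, 27.2 and 25.2 CPM in control, against 25.5, 31.6 and 45.4 CPM after DB2313. Its log2 fold change of 0.33 ± 0.16 (SE) did not pass the threshold and rested on DB2313 replicate 3, without which it was 0.081. Without DB2313 replicate 1 it was 0.50 and passed. The difference between Ifit2 and the other IFIT genes was not tested, since they had been chosen on this comparison.

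Among the OAS genes, the largest fold change was that of Oasl1, an OAS-like protein without enzyme activity that is known to hold back the translation of Irf7. It was at 16.2, 17.2 and 16.9 CPM in control, against 36.1, 37.0 and 44.0 CPM after DB2313, with a log2 fold change of 1.22 ± 0.11 (SE). The nearest libraries of the groups were 2.098-fold apart, the widest gap after that of Ifit3b. Oasl2, which kept enzyme activity in the mouse, was at 93.8, 91.5 and 99.1 CPM in control, against 116, 135 and 167 CPM after DB2313. Its log2 fold change was 0.55 ± 0.11 (SE).

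Oas2 and Oas3 are larger enzymes made of repeated OAS units. Oas3 was at 82.4, 89.9 and 95.1 CPM in control, against 113, 143 and 171 CPM after DB2313, with a log2 fold change of 0.68 ± 0.12 (SE). Oas2 was at 25.0, 19.3 and 19.7 CPM in control, against 29.3, 27.0 and 40.4 CPM after DB2313, and its groups did not overlap. The log2 fold change of Oas2 was 0.59 ± 0.15 (SE). It was 0.53 without control replicate 2 and 0.54 without control replicate 3, and passed the threshold in neither fit.

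Oas1a and Oas1g are small OAS enzymes. Oas1a was at 65.3, 71.2 and 65.4 CPM in control, against 80.3, 77.3 and 84.1 CPM after DB2313. Its log2 fold change of 0.26 ± 0.08 (SE) was the smallest of the 10 genes. Its DB2313 libraries were the most even, with a coefficient of variation of 4.26% against 9.74% to 44.5% for the others. It passed the threshold with all libraries and without DB2313 replicate 1, but in none of the 5 other fits that each left out 1 library, where its log2 fold change was 0.23 to 0.31. Oas1g was at 13.7, 16.9 and 19.4 CPM in control, against 22.1, 18.7 and 22.3 CPM after DB2313, and its groups overlapped. Its log2 fold change of 0.33 ± 0.14 (SE) did not pass. It was 0.21 without control replicate 1 and 0.46 without control replicate 3. With Oas1a and Oas1g summed to 1 gene, the log2 fold change was 0.27 and passed.

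**Figure D4:**
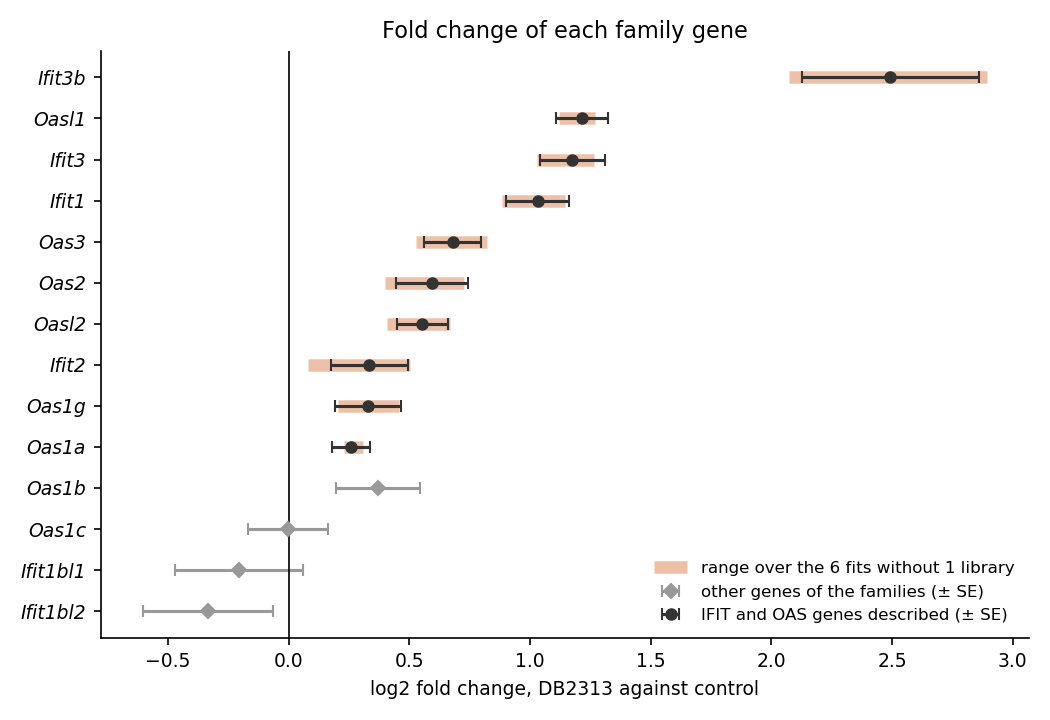
Log2 fold change of DB2313 against control (x axis) with its SE for the 10 IFIT and OAS genes and for 4 other genes of the families; the shaded bars are the ranges over the 6 fits without 1 library. The 10 genes lie between 0.26 and 2.49, and the other 4 between -0.33 and 0.37.

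The spread within the DB2313 group followed the library. DB2313 replicate 3 was the highest of its group for all 10 genes, whereas it was the highest for 37.4% of the 661 genes called higher in the whole table. For Oas1g it was barely so, at 22.3 CPM against 22.1 CPM in DB2313 replicate 1. The median deviation of the 10 genes from the DB2313 mean was -0.17, -0.071 and 0.28 on the log2 scale in replicates 1 to 3, and -0.029 to 0.011 in the control libraries. Without DB2313 replicate 3, 7 of the 10 genes passed the threshold, in a fit that called 7.55% of all genes tested higher, and their log2 fold changes were lower, for example 0.53 for Oas3 and 0.41 for Oasl2. Some marker lists also differed between the DB2313 libraries. The 14 macrophage markers summed to 9470, 9245 and 10128 CPM in DB2313 replicates 1 to 3, the highest in replicate 3. Of these sums, Lyz2 alone made up 7846, 7561 and 8253 CPM. Other lists were lowest in replicate 3. The 12 neutrophil markers summed to 6481, 5401 and 4918 CPM in DB2313 replicates 1 to 3 against 4883 to 5478 CPM in control, the 12 T cell markers to 337, 279 and 229 CPM against 226 to 263 CPM, and the 10 mast cell and basophil markers to 3079, 2944 and 2570 CPM against 2521 to 2721 CPM. For these 3 lists, control replicate 1 was lower still. The part of these cells in the values of the IFIT and OAS genes was not tested.

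The other genes of the families lie in the same clusters. They were left out of the 10 genes when the values were known, so that few calls among them are no separate result. Of 8 such genes, 4 passed the filter. Of these, 0 were called with edgeR, DESeq2 or limma-voom, or had an unadjusted edgeR p under 0.05. Of all genes tested, edgeR called 10.6% in either direction, and 23.3% had an unadjusted p under 0.05. With 4 genes, 0 calls is near those shares. Ifit1bl1, between Ifit3 and Ifit3b on the other strand, had 5.29 ± 0.89 CPM in control, against 4.59 ± 1.73 CPM after DB2313 (SD, n = 3). Its log2 fold change was -0.21, with a 95% interval of -0.77 to 0.36. Ifit1bl2, between Ifit3b and Ifit1, had a log2 fold change of -0.33 (-0.91 to 0.24). Oas1c had a log2 fold change of -0.0013 (-0.36 to 0.35). Oas1b, which is annotated as a polymorphic pseudogene and encodes the flavivirus resistance protein in some strains, had a log2 fold change of 0.37 (-0.0020 to 0.74), and its DB2313 libraries, at 8.01 to 10.2 CPM, lay above its control libraries, at 6.08 to 7.65 CPM. Oas1d, Oas1e and Oas1h had 0 to 9 counts in a library, and Oas1f had none.

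The genes upstream of the families were taken from lists written from general knowledge, when it was already known that interferon genes changed in these data. Of 16 interferon and interferon receptor genes, 7 had no count in any library. Ifnb1 had 3 counts in control replicate 2 and none in the others, and Ifna1 had 3 in control replicate 3 and none in the others. Ifng was found in all libraries, with 13, 18 and 26 counts in control and 13, 20 and 7 with DB2313. Its log2 fold change of -0.66 ± 0.47 (SE) did not pass (edgeR adjusted p = 0.442). Of the 7 genes tested, 1 was higher and 1 lower, where 4.66% of all genes tested were higher and 5.94% lower. Ifngr1, a chain of the receptor for interferon gamma, rose from 206 ± 11.6 to 268 ± 7.61 CPM (log2 fold change 0.38 ± 0.07 SE, edgeR adjusted p = 0.00214). Ifnlr1, a chain of the receptor for interferon lambda, fell from 14.0 ± 0.89 to 8.03 ± 1.09 CPM (-0.80 ± 0.15, adjusted p = 0.00268).

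Of 20 sensors of nucleic acids and their adaptors, 3 were higher and 0 lower, against 4.66% and 5.94% of all genes tested, and 7 had an unadjusted p under 0.05, as 23.3% of all genes did. Mavs, the adaptor of the RIG-I-like receptors, rose by 0.35 ± 0.08 on the log2 scale (SE, edgeR adjusted p = 0.0102), Ifi204, a sensor of DNA, by 0.32 ± 0.09 (0.0327) and Trim25, a ubiquitin ligase that acts on RIG-I, by 0.25 ± 0.07 (0.0324). Unc93b1, which guides endosomal Toll-like receptors and had the highest level of the list, was at 490 ± 16.6 CPM in control, against 470 ± 18.6 CPM after DB2313 and did not pass (0.647). None of the 20 genes passed without control replicate 2 or without DB2313 replicate 2, and 6 passed without DB2313 replicate 1. In the whole table, these 3 fits called 360, 328 and 789 genes higher and 436, 411 and 922 lower. With all libraries, 661 were higher and 842 lower.

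Of 13 signalling factors, 2 were higher and 3 lower, again beside 4.66% and 5.94% of all genes tested. Irf7, the factor that amplifies the production of interferon, rose from 44.8 ± 4.76 to 60.0 ± 8.75 CPM (log2 fold change 0.42 ± 0.11 SE, edgeR adjusted p = 0.0218). It was 53.6, 56.4 and 69.9 CPM in DB2313 replicates 1 to 3. Jak2, the kinase with the highest level of the list, fell from 751 ± 52.2 to 628 ± 22.7 CPM (-0.26 ± 0.07, adjusted p = 0.0272), and Irf5 from 417 ± 9.15 to 350 ± 17.7 CPM (-0.25 ± 0.07, adjusted p = 0.0243). The calls changed with single libraries, as those of the whole table did. Of the 13, 0 passed without control replicate 1 or 2, and 1 passed without control replicate 3 or without DB2313 replicate 2. Those fits called 328 to 383 genes higher and 411 to 485 lower in the whole table, against 661 and 842 with all libraries. Up to 7 passed in the other fits that left out 1 library, which called 789 and 1097 genes higher and 922 and 1311 lower.

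Of 15 genes listed as brakes on the pathway and tested, 1 was higher and 1 lower. This share is near the 10.6% of all genes called in either direction, so the count is no result about the list. Isg15, a ubiquitin-like protein that is joined to other proteins, rose from 17.7 ± 2.02 to 28.7 ± 4.14 CPM (log2 fold change 0.70 ± 0.13 SE, edgeR adjusted p = 0.00212). Its place in this list came from general knowledge, and whether it acts as a brake in these cells was not tested. The phosphatase Ptpn1 fell from 396 ± 2.88 to 328 ± 21.1 CPM (-0.27 ± 0.07, adjusted p = 0.0182). Samhd1, which degrades nucleotides, had the highest level and did not pass, at 912 ± 20.4 and 796 ± 17.3 CPM (adjusted p = 0.0596). Leaving out single libraries gave 1 to 4 calls in this list. There were 4 without DB2313 replicate 3 and 1 without any one of the control libraries or DB2313 replicate 2. The calls of the whole table moved as well, with 1097 higher and 1311 lower without DB2313 replicate 3. Without DB2313 replicate 2 they were 328 and 411.

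Downstream of the families, 0 of 7 genes of the oligoadenylate pathway and cap methylation passed in edgeR, DESeq2 or limma-voom. An unadjusted edgeR p under 0.05 was found for 1 of them. Of all genes tested, edgeR called 10.6%, and 23.3% had an unadjusted p under 0.05, so the count is no result about the list. Pcif1, a methyltransferase of the cap and the highest of the list, was at 85.1 ± 4.32 and 77.1 ± 5.30 CPM (adjusted p = 0.319).

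Of 51 other interferon-stimulated effectors tested, 15 were higher and 4 lower, beside the 4.66% and 5.94% of all genes tested. The median log2 fold change of the list was 0.19. Cmpk2, a nucleotide kinase, rose from 25.0 ± 1.09 to 42.1 ± 6.22 CPM (log2 fold change 0.75 ± 0.11 SE, edgeR adjusted p = 4.4e-04) and Rsad2, the antiviral enzyme viperin, from 22.6 ± 1.05 to 36.2 ± 3.65 CPM (0.68 ± 0.10, adjusted p = 5.7e-04). Ifi44 fell from 6.77 ± 0.39 to 3.67 ± 1.35 CPM (-0.89 ± 0.24, adjusted p = 0.0290). Ly6e, the highest of the list, was at 1253 ± 26.2 and 1442 ± 94.4 CPM and did not pass (adjusted p = 0.0703). DB2313 replicate 3 was the highest DB2313 library for 11 of the 15 effectors called higher. The list had 11 calls without control replicate 2, 12 without DB2313 replicate 2 and 23 without DB2313 replicate 1. In the whole table, these 3 fits called 360, 328 and 789 genes higher and 436, 411 and 922 lower, against 661 and 842 with all libraries.

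**Figure D5:**
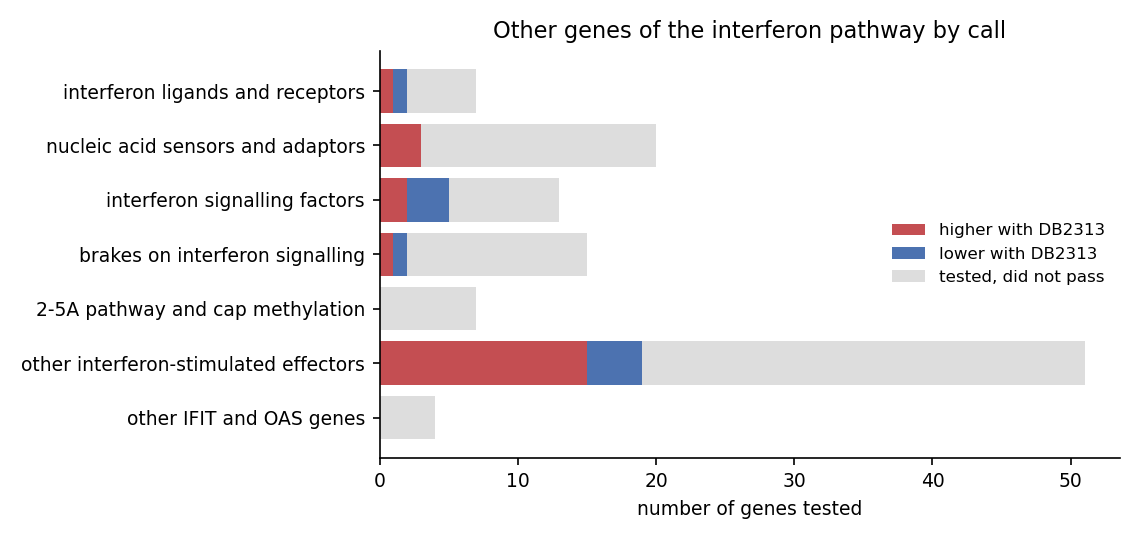
Number of genes tested in each list of the interferon pathway (x axis), split by the call of edgeR at an adjusted p under 0.05. The effector list has 15 genes higher and 4 lower of 51, and the list of the oligoadenylate pathway and cap methylation has none of 7.

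The genes whose levels followed those of the 10 genes most closely were found by the root mean square distance between log2 CPM profiles over the 6 libraries, each centred on its mean, among 12363 protein-coding genes, whose median distance was 0.47. The nearest was Cmpk2 at 0.073, followed by Glt28d2 (0.091), Slc40a1 (0.091), Rbfox2 (0.096) and Tmco4 (0.098). Of these, Slc40a1, the exporter of iron from cells, was at 67.2 ± 5.42 CPM in control, against 130.4 ± 16.2 CPM after DB2313. Glt28d2 was near the lower limit of measurement, at 0.498 and 1.02 CPM. Of the 10 genes themselves, Ifit1 was the closest to their mean profile (0.12) and Ifit3b the farthest (0.84).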

How the data were processed

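The values deposited by the authors were read counts, not normalized, for each gene in each of the 6 libraries, beside the gene length in base pairs. The submitters' processing notes name CASAVA 1.8, HISAT2 2.0.5 and featureCounts 1.5.0-p3, while the methods of the study name LifeScope. The build, the strandedness and the treatment of multi-mapped reads were not given in the sources used here. Start and end were the same as in GENCODE M21 (GRCm38) for 98.33% of 54409 shared identifiers and for all 10 genes.

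Groups were taken from the treatment in the labels. The test was edgeR 4.0.16 (quasi-likelihood, TMM, filterByExpr, R 4.3.3) on all 6 libraries in a model of treatment alone, with p-values adjusted by Benjamini-Hochberg over 14174 genes. It was tested on simulated data. A gene was called at an adjusted p under 0.05. The SE was derived from the F statistic. CPM values use TMM-scaled totals, and errors cover the spread between libraries only. Alternatives were DESeq2 1.42.0, limma-voom (limma 3.58.1), other scalings, filters and prior counts, glmTreat, a gene length offset, a replicate block, summed copies and the omission of each library.

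The genes, lists and tests were chosen with earlier results of these data known. Named were all family genes, the gene with the highest level per list and the 5 nearest profiles. Up to 3 called genes per list were added by largest fold change, given no overlap of groups and mean log2 CPM reaching 1. Outside this rule, Ifnb1, Ifna1, Ifng and some cell type markers were named. Shared stretches were exact matches among GENCODE M21 transcripts on either strand. Same-numbered libraries did not deviate together. Some single genes of the lists are not reported here by name.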

Additional observations from a re-analysis of the deposited data

How the results depend on the processing

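The log2 fold changes of the 10 genes stayed positive in all 19 alternatives. In the fit with summed copies, Ifit3 with Ifit3b and Oas1a with Oas1g were each fitted as 1 gene. The number called higher was 7 to 9 in 12 of the 13 alternatives that kept all libraries and 6 to 9 without 1 library, and 0 were called lower. It was 3 under glmTreat, which asks for a change above 1.5-fold, and there 0 receptors, 0 sensors, 0 signalling factors, 0 brakes and 0 effectors passed. In the whole table, glmTreat called 46 genes higher and 40 lower against 661 and 842, and the fits without 1 library 328 to 1097 higher and 411 to 1311 lower. Without 1 library, 0 to 6 sensors, 0 to 7 signalling factors, 1 to 4 brakes, 0 to 1 genes of the oligoadenylate pathway and cap methylation and 11 to 23 effectors passed. With no filter, 1 gene of the oligoadenylate list passed. The cause was not tested.

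Same-numbered libraries were not treated as pairs in the main model. Their deviations correlated at 0.0035, -0.024 and -0.12, which cannot show whether they shared a culture. In the fit with a replicate block, 7 of the 10 genes, 1 sensor, 1 signalling factor and 1 brake passed. Oas1a (0.26) was the gene lost under the block, and also with the gene length offset (0.22).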
